A study of Daphnia sinensis with 8 samples.

Results

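A total of 131 of the 11114 listed unigenes of *Daphnia sinensis* were depleted in males. They were low in both libraries of males (M) and higher in every library of juvenile females (JF), parthenogenetic females (PF) and sexual females (SF). A unigene is a sequence that the authors assembled from the reads and treated as a gene. The members were chosen by their measured values in all 8 libraries, given as counts per 1000000 counts of a library (CPM). The mean of each female stage had to reach 5 CPM, which 7036 unigenes did. When the 4 stage means were put in order, the widest log2 gap had to lie between M and the lowest female stage, which left 878 unigenes. Finally, the lowest of the 6 female libraries had to be at least 2 times the higher of the M libraries, and this quotient is called the ratio below. All 131 unigenes that met these criteria were kept, since the rule allowed up to 200. Of the 11 male-biased unigenes with a known gene name, which the rule bars, 0 met the criteria. Because males were compared with females to choose the members, the male values are given as a description, and calls between males and females only as counts that follow from the rule.

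The study sequenced poly-A RNA of pooled whole animals in 2 libraries per stage. An M sample held about 60 adult males with a labelled age of 2 to 3 weeks, a JF sample about 500 females within 12 h of birth, a PF sample about 50 adult females carrying eggs for the first time, and an SF sample about 50 adult females carrying resting eggs, with the same labelled age as the males. All animals descended from parthenogenetic females of a lake stock kept on the same green alga. JF came from mothers kept singly, whereas PF, SF and M came from crowded beakers, and the males were then cultured apart. The methods describe males both as newborn and as kept in culture afterwards, and the labelled adult age is followed here. Thus sex cannot be told apart from this culture, nor stage from age and culture where JF was compared with adults. PF and SF libraries may also hold RNA of the eggs that the females carried, and in whole animals fewer cells of a type cannot be told apart from less RNA per cell.

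The libraries held 17172891 to 27160267 counts. *Doublesex2* (Cluster-5789.12340), a gene of the transcription factor family that directs male development in *Daphnia magna*, had 220.01 and 213.8 CPM in M and 3.41 to 6.35 CPM in the 6 female libraries, which matches the sex labels. The study took this unigene from those most raised in males of these libraries, so it is not an independent check of the labels. The M libraries differed far less from each other than the libraries of a female stage. Over all listed unigenes, a chi-square of the counts of both replicates, divided by its degrees of freedom, was 1.83 for M, 61.6 for JF, 92.1 for PF and 166 for SF, where 1 is sampling alone. The M libraries were kept as 2 replicates because they are labelled so. A value above 1 cannot show that they came from separate pools of animals. Nothing in the labels says that replicate pools came from separate cultures, so the tests below measure the spread between these pools only. The tests share 1 fit of all stages, so the closer M libraries also enter the spread used between female stages. The p-values between female stages may therefore be too small. Fits of only the 4 libraries of a comparison, given below, leave out M but also the other female stage. They cannot show the effect of the M libraries alone, which was not tested.

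*Daphnia* females and males of a clone carry the same genome, and the sex of an animal is set by the environment of its mother. A mother can brood daughters or sons without mating, whereas the resting egg, enclosed in a hardened part of the carapace, has to be fertilized before it is shed. Genes with more RNA in females than in males are called female-biased, and in adult females the ovary, yolk formation and egg provisioning are well-known sources of such a bias. A newborn female has not yet formed mature eggs. The deposited values pair no member with a gene name, and 0 of the member IDs matched the reference gene table of the species. The members are therefore given by unigene ID, and neither functions nor sequences can be attached to them here.

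The members had a median of 3.38 and 3.73 CPM in the M libraries, against 21.8 and 18.2 in JF, 37.5 and 38.8 in PF, and 33 and 37.9 in SF. The 2 M libraries lay together at the bottom, JF in between, and PF and SF close to each other at the top. Together the 131 unigenes took 0.228% and 0.229% of all counts in M, against 0.898% and 0.82% in JF, 2.11% and 2.04% in PF, and 1.81% and 2.08% in SF. The median log2 difference of stage means was -2.03 for M minus JF, -2.61 for M minus PF and -2.51 for M minus SF. For the 7036 unigenes above the level minimum, the same medians were -0.22, -0.21 and -0.08.

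**Figure D1:**
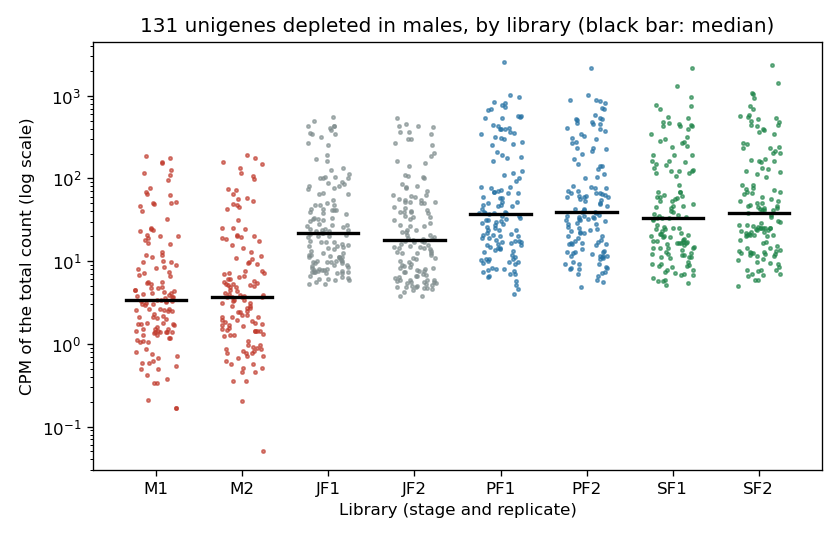
CPM of the total count (log scale) of the 131 members in each library, with 1 point per member and the median as a black bar. The medians of M1 and M2 are 3.38 and 3.73 CPM, below those of all 6 female libraries, and the JF medians lie below those of PF and SF.

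That both M libraries lay below all female libraries was required of the members, and it also held for 20.0% of all listed unigenes. In edgeR's quasi-likelihood test over all unigenes, 130 of the 131 members were called lower in M vs JF, where 15.6% of the tested unigenes were. In M vs PF it was 131 members against 15.9% of the tested unigenes, and in M vs SF 130 members against 11.9%. These counts follow from the rule and are not read as a result. The exceptions were named after their values were seen. Cluster-5789.7954 had 49.1 and 48.3 CPM in M and 100.5 and 100.8 in JF, and its fitted log2 fold change in M vs JF was -0.99. Cluster-5789.408 had 1.8 and 1.07 CPM in M, but its JF libraries differed widely (5.89 and 63.6 CPM), and it was not called in M vs SF.

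The members ranged widely in how far they were depleted. The ratio had a median of 3.05 and ran from 2.02 to 133. It was below 3 for 64 members, from 3 to 5 for 38, from 5 to 10 for 12 and above 10 for 17. In M, 20 members had a mean below 1 CPM, 61 from 1 to 5 CPM, 25 from 5 to 20 CPM and 25 above 20 CPM. The deposited list holds only unigenes with reads in all 8 libraries, so unigenes without any reads in males could not be found here.

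**Figure D2:**
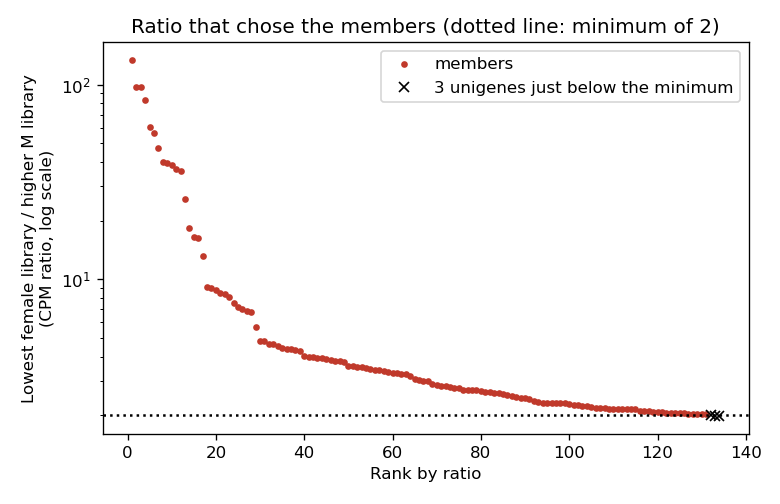
Ratio of the lowest female library to the higher M library (log scale) against the rank of each member, with the 3 unigenes just below the minimum as crosses. The ratio falls steeply over the first members and levels off toward the dotted line at 2, so there is no step at the minimum.

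The last members and the first unigenes left out were alike. Inside the minimum were Cluster-5789.6566, Cluster-5789.9916 and Cluster-5789.5591, with ratios of 2.024, 2.021 and 2.018. Just outside were Cluster-5789.2226, Cluster-5789.7177 and Cluster-5789.3659, with ratios of 1.999, 1.979 and 1.973. Cluster-5789.7177 was far more abundant than the members beside it. It had 435 and 423 CPM in M and 861 to 1482 CPM in the female libraries.

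The highest ratio was that of Cluster-5789.4224. It had 0.336 and 0.358 CPM in M, against 47.7 and 52.3 in JF, 779 and 534 in PF, and 475 and 497 in SF. From the summed male counts, the male level was 0.345 CPM (95% exact Poisson interval 0.193 to 0.569, counting error only). The mean of the 3 female stages was 1152 times as high, with an interval of 699 to 2059 from the male counting error alone. This interval leaves out the spread between female libraries and the choice of the member by its ratio. Both adult female stages lay far above JF, and JF far above M.

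Cluster-5789.4226 had the same order of stages. It had 0.5 and 0.818 CPM in M, against 89.3 and 79.2 in JF, 731 and 528 in PF, and 560 and 567 in SF. Cluster-5789.8464 had 0.166 and 0.46 CPM in M, against 39.3 and 38.5 in JF, 393 and 299.7 in PF, and 283 and 257 in SF. The M libraries of Cluster-5789.8464 differed more than 2-fold from each other, at only 13 counts in both together, while no female stage came near them. Cluster-5789.4237 had 0.209 and 0.563 CPM in M, against 42.9 and 34.2 in JF, 207 and 174 in PF, and 162 and 203 in SF.

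A further 3 members had higher male levels but the same order of stages. Cluster-5789.13108 had 0.626 and 0.767 CPM in M, against 64.4 and 43.4 in JF, 411 and 478 in PF, and 269.97 and 382 in SF. Cluster-5789.2770 had 1.17 and 0.972 CPM in M, against 80.6 and 55.4 in JF, 446 and 394 in PF, and 273 and 363 in SF. Cluster-5789.6803 was the most abundant of the 8, with 4.13 and 5.12 CPM in M, against 316 and 204 in JF, 807 and 806 in PF, and 773 and 1037 in SF. In all 3 the groups of libraries kept the order M, JF, adult females without overlap between these levels.

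Cluster-5789.9842 stood apart from this pattern, because its PF libraries were not above JF. It had 0.167 and 0.0512 CPM in M, against 19.7 and 26.4 in JF, 16.2 and 17.4 in PF, and 48.9 and 56.7 in SF. The male values rest on 4 and 1 counts. The pooled male level was 0.115 CPM (95% exact Poisson interval 0.0373 to 0.268). The female mean was 269 times as high (interval 115 to 827, from the male counting error alone).

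**Figure D3:**
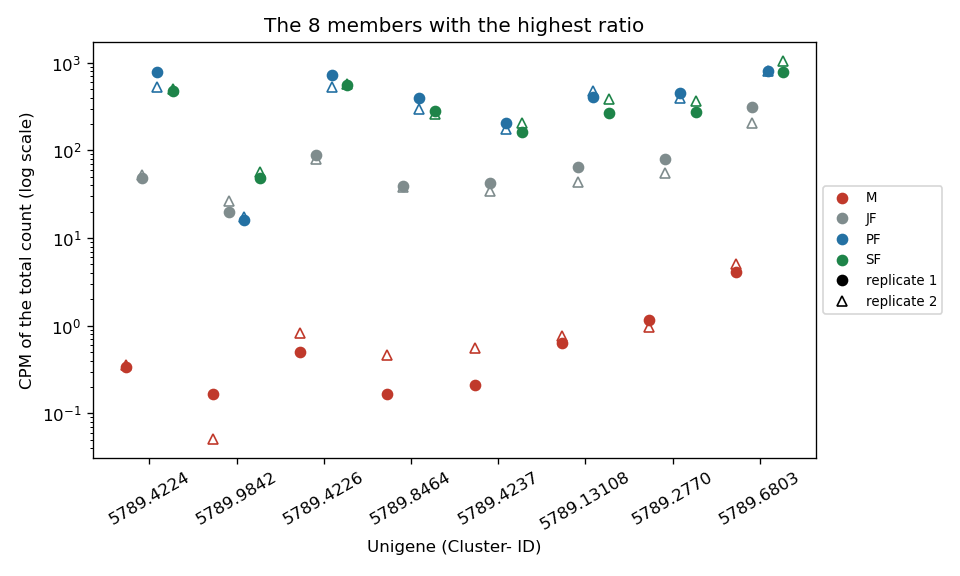
CPM (log scale) of the 8 members with the highest ratio, with colours for stages, filled circles for replicate 1 and open triangles for replicate 2. In 7 of them PF and SF lie above JF and JF above M. In Cluster-5789.9842 the PF libraries (16.2 and 17.4 CPM) lie below the JF libraries.

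Most of the members with the highest levels in females had lower ratios. Cluster-5789.3500 had 64.4 ± 0.325 CPM in M, against 548 ± 4.92 in JF, 2355 ± 299.5 in PF and 2244 ± 157 in SF (SD, n = 2 libraries each). It was the most abundant member in each of the 6 female libraries, and its ratio was 8.43. Cluster-5789.6612 had 21.6 ± 1.99 CPM in M, against 322 ± 26.6 in JF, 931 ± 59.9 in PF and 1360 ± 74.8 in SF. Cluster-5789.4396 had 31.9 ± 0.0614 CPM in M, against 352 ± 117 in JF, 1024 ± 4.36 in PF and 1024 ± 77 in SF. These 3 unigenes repeated the order of M, JF and adult females.

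Other abundant members kept a substantial level in males. Cluster-5789.5574 had 153 ± 2.66 CPM in M, against 346 ± 0.8 in JF, 780 ± 126 in PF and 839 ± 133 in SF, and a ratio of 2.23. Cluster-5789.6451 had 130.1 ± 7.21 CPM in M, against 419 ± 7.84 in JF, 631 ± 99.5 in PF and 620 ± 111 in SF. The highest male levels among the members were those of Cluster-5789.4913, with 186 and 189 CPM in M, and of Cluster-5789.7325, with 179 and 175 CPM. Cluster-5789.4913 had 408 to 681 CPM and Cluster-5789.7325 had 393 to 541 CPM in the female libraries, so depletion in males was not tied to a low level there.

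The female stages were compared with each other to see how the members varied among females. The rule treats JF, PF and SF alike but keeps every gap between neighbouring female stages below the gap to M, so wide differences between females could only enter where the male gap was wider still. A unigene was called at a Benjamini-Hochberg adjusted p below 0.05 over the 10822 tested unigenes and an absolute log2 fold change above 1, in edgeR's quasi-likelihood test. All 131 members passed its filter on low counts.

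In PF vs JF, 51 members were called higher (38.9%) and 2 lower (1.53%), whereas 17.2% of all tested unigenes were called higher and 21.6% lower. The median log2 fold change was 0.60 over the members and -0.08 over all tested unigenes. In SF vs JF, 47 members were called higher (35.9%) and 2 lower, whereas 19.0% of all tested unigenes were called higher and 18.6% lower. The medians were 0.67 over the members and 0.08 over all tested unigenes. Both comparisons use the same JF libraries and are not independent of each other. JF replicate 1 was above JF replicate 2 for 98 members (74.8%), against 48.3% of the 7036 unigenes above the level minimum. The counts were 54 higher without JF replicate 1 and 49 without JF replicate 2 in PF vs JF, and 54 and 44 in SF vs JF.

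Read by library, both JF libraries lay below all PF and SF libraries for 75 members (57.3%), against 30.4% of all listed unigenes. The opposite, both JF libraries above all adult females, was found for 6 members (4.58%), against 29.9%. PF had the highest female mean for 59 members, SF for 56 and JF for 16. The PF mean was at least 4 times the JF mean for 25 members, and the SF mean at least 4 times the JF mean for 21. For these counts by stage mean no share over all unigenes is given, so they only describe the members.

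**Figure D4:**
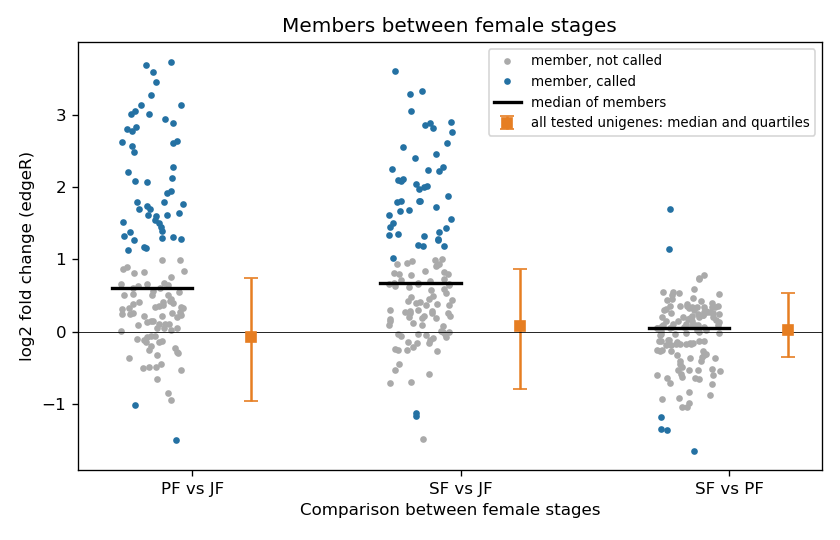
log2 fold change of the 131 members in the 3 comparisons between female stages, with called members in blue, others in grey and the member median as a black bar. The orange squares and bars are the median and quartiles of all 10822 tested unigenes. The member medians are 0.60 in PF vs JF, 0.67 in SF vs JF and 0.05 in SF vs PF.

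Most of the widest differences from JF were found among the members with the highest ratios. Of the 20 members with the highest ratio, 18 were called higher in PF vs JF and 19 in SF vs JF, whereas 33 and 28 of the other 111 were. The rule ties both quantities, since a wide female gap needs a wide male gap, so this is given as a description only. Cluster-5789.6853 had the largest log2 fold change in PF vs JF, 3.73 ± 0.18 (SE, edgeR adjusted p = 5.18e-05). It had 345 and 348 CPM in PF, against 27.7 and 23.5 in JF, with 1.04 and 1.43 in M. Cluster-5789.4224, described above, followed with 3.69 ± 0.24 (SE, edgeR adjusted p = 7.73e-05). In SF vs JF the largest change was that of Cluster-5789.8682, with 3.61 ± 0.22 (SE, edgeR adjusted p = 0.000133). It had 116 and 105 CPM in SF, against 7.44 and 10.8 in JF, with 0.752 and 0.818 in M. Cluster-5789.8463 came next with 3.33 ± 0.33 (SE, edgeR adjusted p = 0.000383). In each of these unigenes the adult libraries were clear of the JF libraries, and those of M were clear of both.

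Few members fell in adult females relative to JF. Cluster-5789.6566 was called lower in both comparisons, with 14.6 and 16 CPM in PF and 12.8 and 24.9 in SF, against 50.6 and 34 in JF. Its log2 fold change was -1.498 ± 0.307 in PF vs JF (SE, edgeR adjusted p = 0.00581) and -1.17 ± 0.30 in SF vs JF (SE, edgeR adjusted p = 0.0155). The call in SF vs JF was lost without JF replicate 1 or SF replicate 1, where the log2 fold change was -0.88 and -0.68, and with edgeR on the 4 libraries of the comparison, where it was -1.16. Cluster-5789.1776 had 14 and 16.5 CPM in PF, against 28 and 32 in JF, a log2 fold change of -1.01 (edgeR adjusted p = 0.00408) that sat at the threshold and was lost in 8 of 14 alternatives, among them the fits without JF replicate 2, PF replicate 1 or either SF replicate. Cluster-5789.73 had 14.8 and 20.2 CPM in SF, against 36.8 and 39.6 in JF, a log2 fold change of -1.12 (edgeR adjusted p = 0.00165), and was not called without SF replicate 1. Without that library 0 members were called lower in SF vs JF by edgeR, and 4 were lower at an unadjusted p below 0.05. The count of 2 lower members in PF vs JF became 1 without PF replicate 1 or either SF replicate, and 3 without JF replicate 1 or PF replicate 2.

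Most members were not called between the adult females, as was true of most tested unigenes. In SF vs PF, 2 members were called higher (1.53%), against 9.98% of all tested unigenes, and 4 lower (3.05%), against 4.84%. The share called lower was thus near that of all tested unigenes, while a smaller share was called higher. With edgeR on the 4 libraries of the comparison alone, 2 members were called lower, and 6.65% rather than 14.8% of all tested unigenes were called in either direction. The median log2 fold change was 0.05, with quartiles of -0.32 and 0.27. The quartiles were -0.34 and 0.37 over the unigenes above the level minimum, and -0.35 and 0.53 over all tested unigenes. The remaining 125 members were not called, which does not show that they were equal. Cluster-5789.9842 was the clearest exception, with 48.9 and 56.7 CPM in SF, against 16.2 and 17.4 in PF, a log2 fold change of 1.70 ± 0.23 (SE, edgeR adjusted p = 0.00432). It was also called in SF vs JF (1.20, edgeR adjusted p = 0.00454), but not without JF replicate 1. Cluster-5789.4866 had 146 and 162 CPM in SF, against 67.7 and 76.1 in PF, a log2 fold change of 1.15 (edgeR adjusted p = 0.0137) whose call was lost without PF replicate 2, although the log2 fold change was then 1.16.

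In the other direction, Cluster-5789.3 had 11.3 and 11.5 CPM in SF, against 31.6 and 42.5 in PF, a log2 fold change of -1.65 ± 0.22 (SE, edgeR adjusted p = 0.00401). Its JF libraries (9.9 and 13.4 CPM) were level with SF, so PF stood alone at the top. Cluster-5789.405 had 11.4 and 9.35 CPM in SF, against 23.5 and 32.3 in PF, a log2 fold change of -1.37 ± 0.22 (SE, edgeR adjusted p = 0.00657). Its call was lost with edgeR on the 4 libraries, at a log2 fold change of -1.36. The other 2 were Cluster-2009.0 (log2 fold change -1.19) and Cluster-5789.12705 (-1.34), which were named because so few were called.

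Some members were nearly even among females. The smallest spread over the 6 female libraries was 1.24 times from lowest to highest, found in Cluster-5789.5453. It had 50.6 and 54 CPM in M, against 133 and 139.9 in JF, 122 and 113 in PF, and 122.7 and 122.6 in SF. Cluster-5789.7647 had 76.1 and 73.9 CPM in M, against 192 and 189 in JF, 194 and 197 in PF, and 156 and 158 in SF. For these unigenes only the males stood apart by more than the spread among females. Over all members, the highest female library was a median of 2.4 times the lowest, against 2.52 times for the 7036 unigenes above the level minimum.

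The 16 members with their highest female mean in JF had somewhat lower ratios than the members as a whole, whose median was 3.05. The ratio of these 16 had a median of 2.47 and ran from 2.02 to 6.83. It sets M against the lowest female library, so M could lie farther below JF. For 1 of the 16, Cluster-5789.6566, the JF mean was at least 2 times that of both other female stages. Among them, Cluster-5789.408 owed its JF mean to JF replicate 2 (63.6 CPM, against 5.89 in JF replicate 1).

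Replicates of a stage were mostly close for the members. The number of members whose replicates differed over 2-fold was 5 for M, 3 for JF, 2 for PF and 1 for SF. In M these 5 had at most 1.17 CPM. SF replicate 2 was above SF replicate 1 for 103 members (78.6%), against 65.9% of the unigenes above the level minimum. The median absolute log2 ratio between replicates was 0.15 for M, 0.26 for JF, 0.18 for PF and 0.26 for SF. Over the unigenes above the level minimum it was 0.05, 0.14, 0.26 and 0.24.

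The unigene IDs, which the rule did not use, showed runs of neighbouring members. An ID gives an assembly cluster and a number within it, and the sources used here do not say how the numbers were assigned. Of the members, 127 carried an ID that starts with Cluster-5789 and 4 (3.05%) that of another cluster, against 5.88% of all listed unigenes and 1.62% of those above the level minimum. For each member, the listed unigenes with a number within 5 of its own were counted as neighbours. A unigene near several members was counted once for each of them, so the longer runs weigh more. Of the 970 neighbours counted in this way, 54 (5.57%) were members, against 1.18% of all listed unigenes. Among unigenes above the level minimum alone, with neighbours counted in the same way, the shares were 8.24% and 1.86%. With members no more than 5 numbers apart joined, 29 members fell into 11 runs, of which 9 held 2 members, 1 held 4 and 1 held 7. Over all listed unigenes, the log2 ratio of male to female level was correlated between consecutive numbers with a Pearson r of 0.15 and a Spearman rho of 0.10 (8175 pairs, in which each unigene can occur in 2 pairs and all share the same libraries). Over the unigenes above the level minimum, from which the members come, r was 0.11 and rho 0.03 (4067 pairs). The span of 5 numbers was chosen after the values were seen.

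The run of 4 held strongly depleted members only. Cluster-5789.8460, Cluster-5789.8463, Cluster-5789.8464 and Cluster-5789.8465 had 0.418, 0.841, 0.313 and 1.32 CPM in M, against 17.2, 22.7, 38.9 and 60.5 in JF (stage means). Their means were 146, 252, 346 and 494 CPM in PF, and 126, 225, 269.99 and 432 in SF. All 4 thus had adult female levels several times those of JF, and only traces in M.

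Cluster-5789.4224 and Cluster-5789.4226, the first and the third by ratio, formed a run of 2. Close to them in number, Cluster-5789.4235 and Cluster-5789.4237 formed another. Cluster-5789.4235 had 0.501 and 0.205 CPM in M, against 32.1 and 19.8 in JF, 364 and 268 in PF, and 193 and 234 in SF. The run of 7 extended from Cluster-5789.6723 to Cluster-5789.6733 and was less depleted, with ratios from 2.29 to 5.64. In it, Cluster-5789.6731 had 0.585 and 0.896 CPM in M, against 7.43 and 5.06 in JF, 15.6 and 15.6 in PF, and 19.5 and 21.2 in SF. Its neighbour Cluster-5789.6732 had 1.13 and 0.921 CPM in M, against 9.68 and 4.53 in JF, 17.7 and 16.7 in PF, and 17.5 and 25.2 in SF, and its call in PF vs JF (1.26) was lost without JF replicate 2 or PF replicate 1. The pair Cluster-5789.6725 and Cluster-5789.6726 had means of 3.28 and 3.9 CPM in M, against 18.4 and 19.9 in JF, 34.8 and 58.8 in PF, and 46.3 and 69.1 in SF. Cluster-5789.6725 was called in SF vs JF (1.34) but not without JF replicate 2.

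**Figure D5:**
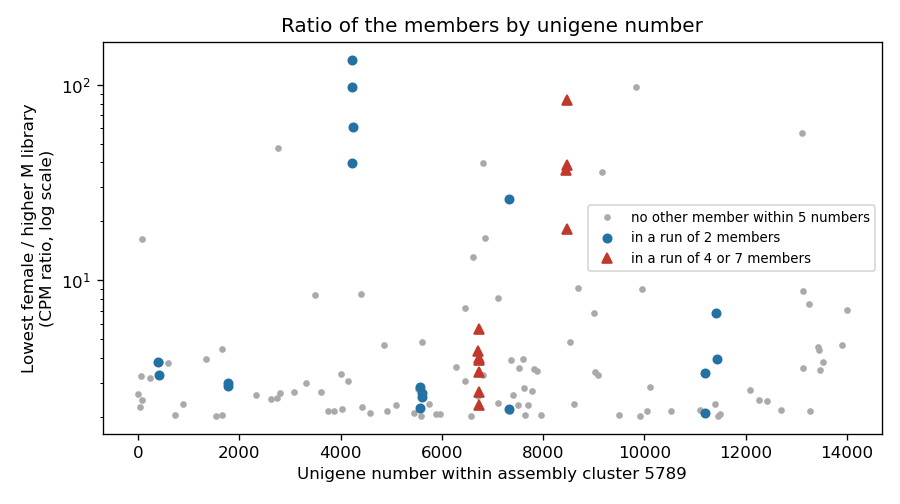
Ratio (log scale) of the 127 members of Cluster-5789 against their number in the cluster. Red triangles mark the runs of 4 and of 7 members, blue circles the runs of 2 and grey points the members with no other member within 5 numbers.

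Whether unigenes with near numbers are related copies or parts of a gene, between which the counting could divide reads, was not tested, so the single values in a run are uncertain. Estimated counts need not be whole where a read fits several unigenes. Counts were whole (to within 1e-06) in all 8 libraries for 24 members (18.3%), against 13.8% of the unigenes above the level minimum and 22.9% of all listed unigenes. They were whole in no library for 12 members (9.16%), against 15.4% above the level minimum and 11.8% of all listed unigenes.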

How the data were processed

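RNA was measured in 8 libraries, 2 each of M, JF, PF and SF. The authors trimmed the reads, assembled them with Trinity into unigenes and deposited an expected count (also called estimated count) per unigene, with no scaling between libraries. The tools for aligning and counting were not given in the sources used here, and every listed unigene had reads in all libraries, so unigenes without reads in a stage were not analysed here. CPM were computed from the column sums. The depth was 17172891 to 27160267 counts per library, at which counting error matters for low values only, and Poisson intervals cover counting error only.

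Counts were rounded to whole numbers and tested with edgeR 4.0.16 (limma 3.58.1, R 4.3.3) in 1 robust quasi-likelihood fit of all 8 libraries with TMM scaling, stage as the only term and edgeR's filter on low counts, which kept 10822 unigenes. Standard errors are the log2 fold change divided by the square root of F. The code of the test was run on simulated counts in which all libraries of a unigene had the same spread. That run cannot show how the test performs where the M libraries are closer than those of female stages. Thresholds follow the study's methods, whose DEGseq 2 package was read as DESeq2 and run as an alternative (DESeq2 1.42.0).

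The members, tests and naming rule were chosen with earlier results of these data known. Named were the 8 highest ratios, the 6 highest female and 2 highest male levels, the 2 largest called changes per direction between female stages, the 3 unigenes on each side of the minimum, the 2 most even members and 4 pairs with consecutive numbers. Members named otherwise were chosen after their values were seen. Sequences, gene names, qPCR and GO terms were not used here.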

Additional observations from a re-analysis of the deposited data

How the results depend on the processing

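The number of unigenes that met the rule was 123 with TMM scaling, 100 with DESeq2 size factors, 194 with a minimum of 1 CPM in the female stages and 89 with 10 CPM, and 118 to 159 with each library left out. Of the 131 members, 116 to 130 remained with each library left out, and 122 and 100 under the other scalings. Of the 48 calls of named members between female stages, 40 were kept in all 14 refits. The number called higher was 49 to 54 in PF vs JF and 44 to 56 in SF vs JF with each library left out, and 75 in SF vs JF with the adjusted p alone. The small counts moved more. Those called lower in PF vs JF (2) were 1 with DESeq2 size factors, with library size only, with DESeq2 on all 8 libraries and with edgeR on the 4 libraries, 6 with the adjusted p alone, and 1 to 3 with each library left out. Those called lower in SF vs JF (2) were 1 with edgeR on the 4 libraries, 5 with the adjusted p alone, and 0 to 2 with each library left out. In SF vs PF, the 2 called higher became 9 with the adjusted p alone and 1 to 2 with each library left out, and the 4 called lower became 2 with edgeR on the 4 libraries, 12 with the adjusted p alone and 4 to 6 with each library left out. Over all tested unigenes, 6.65% rather than 14.8% were called in SF vs PF with edgeR on the 4 libraries. With that setting it was 39.0% rather than 38.9% in PF vs JF, and 36.6% rather than 37.6% in SF vs JF. With the adjusted p alone, the shares were 60.3%, 60.3% and 27.6% in PF vs JF, SF vs JF and SF vs PF. Other scalings moved the median log2 fold change of all unigenes between female stages by less than 0.1. With TMM scaling and DESeq2 size factors it was -0.06 and 0.06 in M vs SF, and -0.14 and -0.04 in M vs JF. Apart from fewer libraries or a looser threshold, the cause was not tested.

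The labels give replicate numbers without a shared culture, and deviations of same-numbered libraries were correlated at -0.07 to 0.19 between stages, so the numbers were not taken as pairs. With the replicate block, 51 members were called higher and 2 lower in PF vs JF, 48 and 2 in SF vs JF, and 2 and 4 in SF vs PF, and no call of a named member was lost.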
